A study of Caenorhabditis elegans with 2 samples.

Results

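The 8 genes that encode the subunits of the DREAM complex in Caenorhabditis elegans were examined for binding of the zinc finger transcription factor ZTF-11. They were lin-54, efl-1, dpl-1, lin-35, lin-9, lin-37, lin-52 and lin-53, out of 19973 protein-coding genes on the nuclear chromosomes. They were listed by name, because products of the MuvB core are reported partners of ZTF-11, with earlier results of these data known. For each gene, every summit (the position of highest signal within a peak) was taken from 2 kb upstream of its 5′ end to its 3′ end in 4 deposited peak lists. The data were ChIP-seq of eGFP-tagged ZTF-11 in whole worms of strain OP236, at mixed embryonic stages, with the sexes pooled. This strain carries the unc-119(ed3) mutation and the transgene wgIs236, from which the tagged protein is made. The design held 1 group of 2 libraries, given as biological replicates, so nothing was compared between conditions. The sources used here do not say how the transgene is driven or whether untagged ZTF-11 is also made. Signal from whole embryos is a sum over all their cell types.

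DREAM is a repressor of cell cycle genes that is conserved from worms to mammals. A heterodimer of an E2F and a DP protein binds DNA, a pocket protein of the retinoblastoma family bridges it to the MuvB core, and the LIN-54 subunit of that core binds a second kind of DNA element, the CHR. In worms most subunits were first known as class B synthetic multivulva (synMuv) genes, which oppose vulval and germline fates in somatic cells. ZTF-11 is the worm member of the Myt1 family, which is known for repressing non-neuronal genes during neurogenesis. Many worm mRNAs are trans-spliced, so an annotated 5′ end is not always the site where transcription starts.

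The thresholded list, cut by the authors for reproducibility between replicates, held 721 peaks, of which 698 were nuclear. Its peaks are the 721 strongest of a pooled list of 12024 peaks made from both libraries together. Each replicate also had its own relaxed list of 30000 peaks, most of them background. Of the nuclear thresholded peaks, 54.7% were among the 721 strongest of both replicates, with a replicate peak counted at every pooled peak it met. A place in the thresholded list thus does not show that a peak was strong in each replicate. Signal is the authors' value for each peak relative to the control, on a scale that is not stated. It differs in scale between lists, so ranks (1 for the strongest peak of a list) are given beside it. Read depth is unknown.

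ZTF-11 had a thresholded summit at the promoters of 5 of the 8 subunit genes. The promoter window reached from 1000 bp before the 5′ end of any protein-coding transcript of a gene to 200 bp after it, and 2.65% of all protein-coding genes had a thresholded summit there. The 5 genes were lin-54, efl-1, lin-35, lin-9 and lin-53, each with 1 such summit, and dpl-1, lin-37 and lin-52 had none. Over the longer stretch from 2 kb upstream to the 3′ end the same 5 genes had a thresholded summit, against 3.97% of all genes, and no further thresholded summit lay in the gene bodies. No test was made of these counts, which come from 1 group of samples.

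The summits of lin-54, efl-1 and lin-9 lay in DNA between genes, and the bases around them are shown. They hold E2F and CHR-type sequences, the kinds of element that DREAM itself is known to bind, and a shared word. The 3 shown are those with the word, not all that lay between genes. The summit of lin-53, also between genes, had both kinds of element in its peak but not the word, and is not shown. That of lin-35, between genes too, had neither kind of element nor the word in its peak, and is not shown. Each sequence runs 5′ to 3′ on the strand of the subunit gene, up to 100 bp to each side of the summit and without any annotated gene, from the WBcel235 assembly of RefSeq. Capitals mark matches on either strand to E2F sites (TTTCGCGC, TTTCCCGC or TTTGGCGC), to CHR-type elements (TTTGAA or TTCGAA) and to a 9-letter word, GCGCTCCAC, that these 3 sequences share. The lin-54 sequence, which stops short of rpl-12, is chrIV:13240652-13240785, the efl-1 sequence chrV:16965757-16965957 and the lin-9 sequence chrIII:8904177-8904377.
lin-54: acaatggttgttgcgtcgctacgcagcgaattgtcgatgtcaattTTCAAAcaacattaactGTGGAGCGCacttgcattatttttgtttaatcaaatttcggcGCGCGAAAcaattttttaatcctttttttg
efl-1: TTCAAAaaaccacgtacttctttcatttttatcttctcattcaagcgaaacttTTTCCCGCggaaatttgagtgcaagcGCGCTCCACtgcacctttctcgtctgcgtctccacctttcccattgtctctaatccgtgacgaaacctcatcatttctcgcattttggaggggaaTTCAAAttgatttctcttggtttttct
lin-9: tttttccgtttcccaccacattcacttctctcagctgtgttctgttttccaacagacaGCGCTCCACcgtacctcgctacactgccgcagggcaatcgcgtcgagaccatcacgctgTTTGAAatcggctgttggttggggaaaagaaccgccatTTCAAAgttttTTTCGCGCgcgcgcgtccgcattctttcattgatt

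An E2F site lay in the peak of 4 of the 5 bound subunit genes. A window of 356 bp centred on the summit held one of the 3 E2F sequences at lin-54, efl-1, lin-9 and lin-53, and in 8.02% of the 698 nuclear thresholded peaks. In the 356 bp upstream of the 5′ end an E2F site was found for the same 4 genes, and for 4.45% of all protein-coding genes. The site started 288 bp upstream of the 5′ end of lin-54, 229 bp upstream for efl-1, 80 bp for lin-9 and 144 bp for lin-53. In efl-1 it was centred 43.5 bp from the summit, and in the other 3 between 69.5 and 140.5 bp from it. Within 50 bp of the summit an E2F site was thus found at efl-1 only, 1 of the 5, and in 2.87% of nuclear thresholded peaks. These are matches of letters, and occupancy by E2F was not measured.

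CHR-type elements, the sites of LIN-54, were common in all peaks and more so upstream of genes at large. TTTGAA or TTCGAA was found within 50 bp of the summit at lin-54, lin-9 and lin-53, and in 17.3% of nuclear thresholded peaks. The 356-bp window held one at the same 3 genes and at efl-1, against 52.7% of peaks, and 76.6% of genes had one in the 356 bp upstream of the 5′ end. At lin-53 the element was centred 1.5 bp from the summit, at lin-54 14.5 bp and at lin-9 19.5 bp. The upstream 356 bp of dpl-1 and lin-37, which had no thresholded summit, also held a CHR-type element, so its presence did not separate the bound from the unbound subunit genes.

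The Myt1-family core AAGTT lay within 50 bp of the summit at lin-35 alone among the 5, centred 13 bp from it. At efl-1 it was centred 50 bp from the summit, so the whole word just missed that window, and at lin-9 61 bp. With the whole word within 50 bp of the summit, AAGTT was found in 8.31% of nuclear thresholded peaks, and its longer form AAAGTT in 4.15%. In the 356-bp window AAGTT was found at lin-54, efl-1, lin-35 and lin-9, against 45.6% of peaks and 76.5% of upstream regions. GAGAGA, which 28.9% of thresholded peaks had within 50 bp of the summit, was there in none of the 5. In the 356-bp window it occurred at lin-35 and lin-9, against 57.3% of peaks. GGGCGG was in none of the 5 windows and in 20.8% of all peaks. A run of 6 thymines was in none of the 5 within 50 bp (11.7% of peaks) and in 4 of the 5 in the 356-bp window (58%).

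The word GCGCTCCAC was found by comparing the members' summits with each other, after their sequences were seen. It was the only 9-letter word within 50 bp of the summit at 3 or more of the 5 genes. It occurred in 1.43% of nuclear thresholded peaks and in the 356 bp upstream of 0.616% of genes. Both shares include lin-54, efl-1 and lin-9. Since recurrence at the members was how the word was chosen, the shares do not measure an enrichment there. The word was centred 33 bp from the summit at lin-54, 17 bp at efl-1 and 38 bp at lin-9, and was not found at lin-35 or lin-53. The commonest 8-letter word of all nuclear thresholded peaks, AGACGCAG, which 9.89% of them held within 50 bp of the summit, was present in efl-1 only among the 5.

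lin-54 encodes the MuvB subunit with the CXC domains that bind DNA, and it had the strongest summit of the 8 genes. On chromosome IV, the peak at 13240507 to 13240862 had a signal of 65.2 in the pooled and thresholded lists, rank 174. Replicate 1 gave it a signal of 43.9 and rank 107, and replicate 2 a signal of 16.2 and rank 843. Replicate 1 thus ranked it higher than replicate 2 did. By its strongest pooled summit in the promoter window lin-54 was in place 133 of all 19973 genes. The summit was 359 bp upstream of lin-54 and 34 bp from the 5′ end of its divergent neighbour rpl-12, which encodes a large ribosomal subunit protein, so rpl-12 was the nearer gene. Pooled summits further upstream, 1418 and 1642 bp from the 5′ end, were weak (ranks 7411 and 2993).

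efl-1 encodes the E2F subunit. Its peak on chromosome V, 16965679 to 16966034, had a pooled signal of 42 and rank 450. In replicate 1 the signal was 17.8 (rank 1033) and in replicate 2 it was 22.3 (rank 390), so replicate 2 ranked it higher. The summit lay 182 bp before the 5′ end, and no other pooled summit lay in the 9086 bp searched. The window of the divergent F-box gene fbxa-90 also covered the summit, from 957 bp away, and efl-1 was the nearer gene.

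dpl-1 encodes the DP partner of EFL-1, and its strongest pooled summit was the weakest such summit of the 8 genes. It lay 21 bp upstream of the 5′ end, with a signal of 15.4 and rank 6001. In replicate 1 a summit 98 bp upstream had a signal of 15.1 (rank 1751), and replicate 2 had no summit in the 4656 bp searched. The gene lies within the body of T23G7.2, which runs on the opposite strand.

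lin-35 encodes the only pocket protein of the worm, the homologue of the retinoblastoma protein. On chromosome I, the peak at 5807311 to 5807666 had a pooled signal of 40.6 and rank 489. Replicate 1 gave a signal of 22.8 (rank 519) and replicate 2 a signal of 17.3 (rank 707). It was the only subunit gene with a peak among the 721 strongest in both replicates. The summit was 220 bp from the 5′ end of lin-35 and 198 bp from that of vps-51, a subunit of a vesicle tethering complex, so the nearer gene was vps-51 by a small margin. In the gene body, pooled summits lay 383 bp (rank 8949) and 4995 bp (rank 4097) downstream of the 5′ end.

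lin-9 encodes a core MuvB subunit and had 2 upstream summits, of which the nearer was thresholded. Its peak on chromosome III, 8904099 to 8904454, had a pooled signal of 35.5, rank 643, close to the weakest signal in the thresholded list, 33.9. In replicate 1 the signal was 14.1 (rank 2264) and in replicate 2 it was 24.1 (rank 331). The summit was 146 bp upstream of lin-9, which was the nearest gene and the only one whose window covered it. A further pooled summit lay 1242 bp upstream, beside the non-coding RNA gene ZK637.19 and toward unc-32, which encodes a subunit of the vacuolar proton pump. Its pooled signal was 32.4, rank 811, just outside the thresholded list. Replicate 1 ranked this second summit 2085 and replicate 2 ranked it 632, so that both upstream summits stood higher in replicate 2. Inside the gene a pooled summit lay 2888 bp downstream of the 5′ end (signal 21.9, rank 2000), and both replicates had one within 1 bp of it, at rank 4100 in replicate 1 and rank 5754 in replicate 2. A weaker pooled summit lay 3115 bp downstream (rank 8029).

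lin-53 encodes a histone-binding WD40 protein that chromatin complexes other than DREAM also use. On chromosome I, its peak at 9619863 to 9620218 had a pooled signal of 45.6 and rank 376. In replicate 1 the signal was 29.1 (rank 292) and in replicate 2 it was 16.3 (rank 825), so replicate 1 ranked it higher. The summit was 281 bp upstream of lin-53 and 186 bp from nra-2, a homologue of nicalin, so nra-2 was the nearer gene. A weaker pooled summit lay 280 bp inside lin-53 (rank 5924), and replicate 2 had a summit at 274 bp there with a signal of 11.2 (rank 2301). The close homologue rba-1 lies just downstream of lin-53 and was outside the stretch searched.

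lin-37 and lin-52 encode MuvB core subunits, and neither had a strong summit of its own. The strongest pooled summit of lin-37 was 1512 bp upstream, beyond the gene ZK418.5 and short of ZK418.13, with a signal of 22.9 and rank 1725. Replicate 1 had a summit 1536 bp upstream there with a signal of 16.1 (rank 1426), and replicate 2 one at 1625 bp with a signal of 5.94 (rank 14381). In its promoter window lin-37 had no pooled summit. The strongest pooled summit of lin-52 lay 351 bp upstream, inside ZK632.9, with a signal of 22.3 and rank 1882. The 5′ end of ZK632.9 was the nearer, at 331 bp. In replicate 1 the strongest was 278 bp upstream with a signal of 18.8 (rank 864), and in replicate 2 it was 467 bp upstream with a signal of 7.12 (rank 9097). For both genes replicate 1 gave this strongest summit the higher rank. A weaker pooled summit lay 337 bp inside lin-52, also in its promoter window (signal 16.6, rank 4594), and replicate 1 had one at 326 bp (rank 5290).

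**Figure D1:**
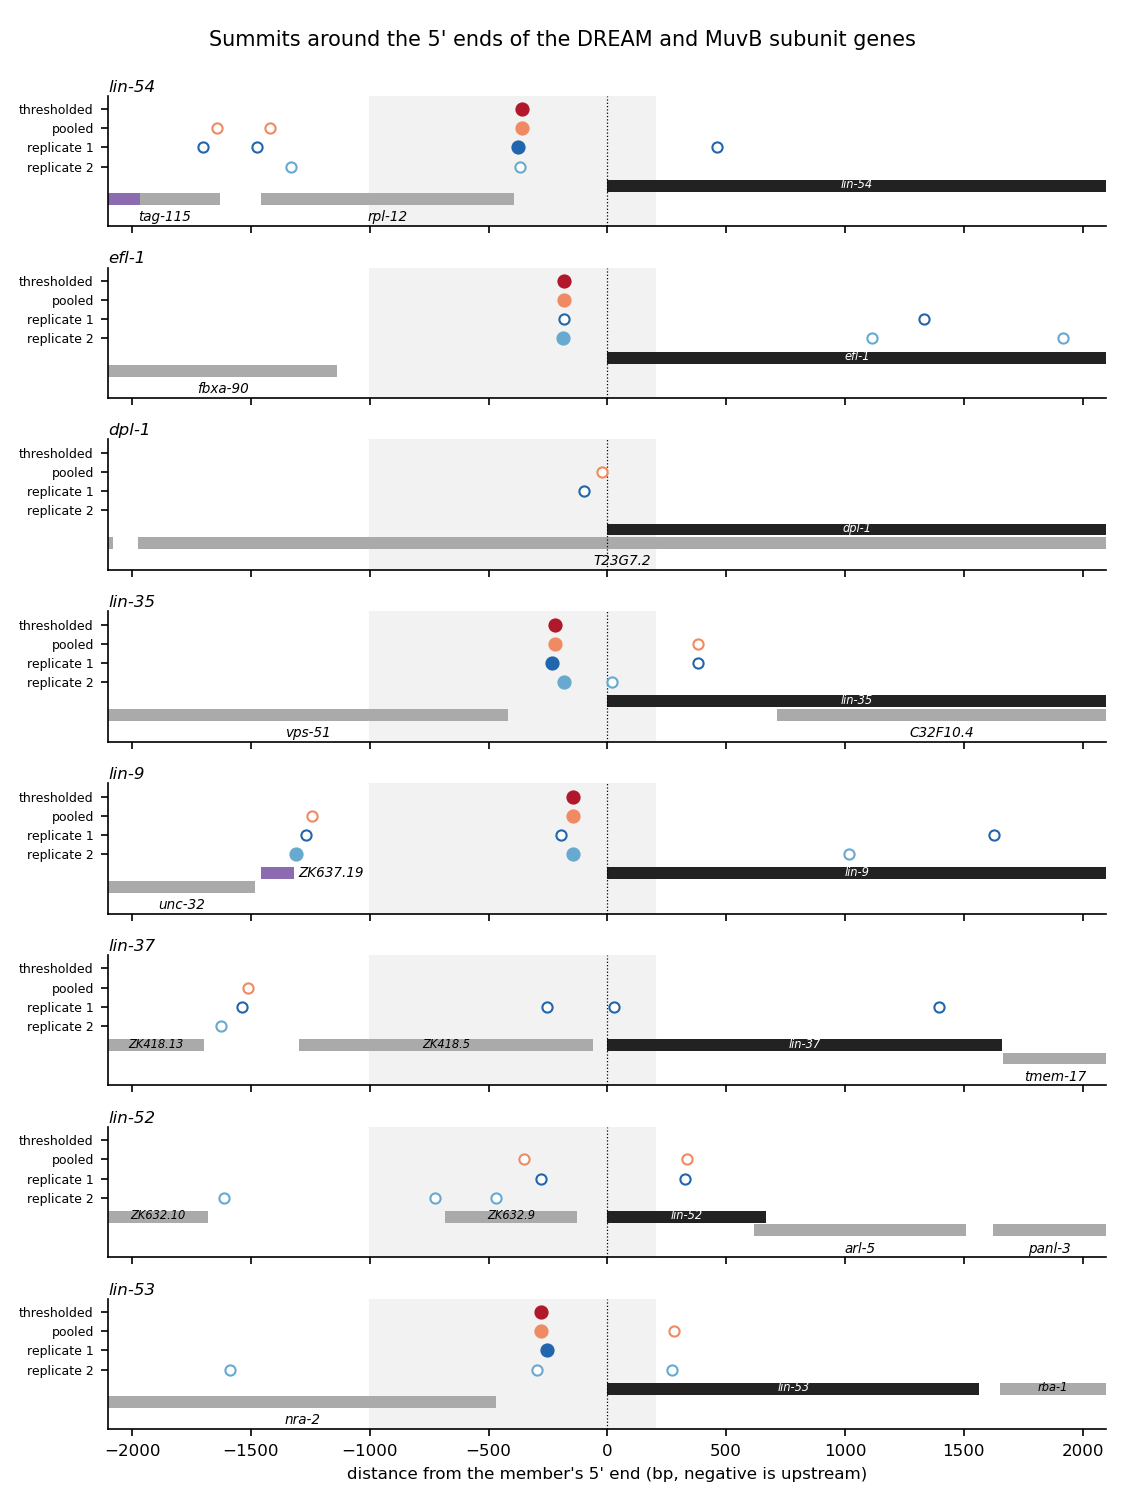
Summits of the 4 peak lists (circles, one row per list) by distance in bp from the 5′ end of each of the 8 subunit genes (dotted line), with the promoter window shaded. Filled circles are among the 721 strongest peaks of their list and open circles are not, black bars are the subunit gene, grey bars other coding genes and purple bars non-coding genes, with genes on the member's strand in the upper row. The 14 summits more than 2 kb downstream are not drawn, and the filled circles at 5 genes lie between 146 and 376 bp upstream, with 1 more 1309 bp upstream of lin-9 in replicate 2.

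The lists that include background show how common a weak summit is, so the counts in them are read against high shares of all genes. In the pooled list 7 of the 8 had a promoter summit (all but lin-37), against 22.4% of all genes, and all 8 had one from 2 kb upstream to the 3′ end, against 41% of genes. In the relaxed list of replicate 1, 8 had one in the promoter window (41.5% of genes) and 8 in the longer stretch (71.1%). In that of replicate 2, 6 had one in the promoter window (41.9%) and 7 in the longer stretch (72%). The 8 genes had 69 summits in the 4 lists together, from 2 at dpl-1 to 15 at lin-9. In the replicate lists they had 0.525 and 0.548 summits per kb searched, against 0.299 per kb over the nuclear genome in each. The genome value also covers DNA far from genes, so the densities are over unlike stretches. The density over the same stretch of all genes is not given here.

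The thresholded list is itself the strongest part of the pooled list, so the signals of the 8 genes are given as a description. Over the stretch from 2 kb upstream to the 3′ end, the median over the 8 genes of the strongest pooled signal was 38.1, against 16.4 over the 8197 genes that had a summit there. The strongest signals of lin-54, lin-53, efl-1, lin-35 and lin-9 were in places 192, 420, 500, 550 and 711 among all genes. Those of lin-37, lin-52 and dpl-1 were in places 1772, 1898 and 4886. The −log10 q-value that the authors' list gives each peak was 2.06 at lin-54, 2.07 at lin-9, 2.18 at lin-53, 2.25 at efl-1 and 2.29 at lin-35. It was 0.55 at lin-37, 0.49 at lin-52 and 0.08 at dpl-1.

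**Figure D2:**
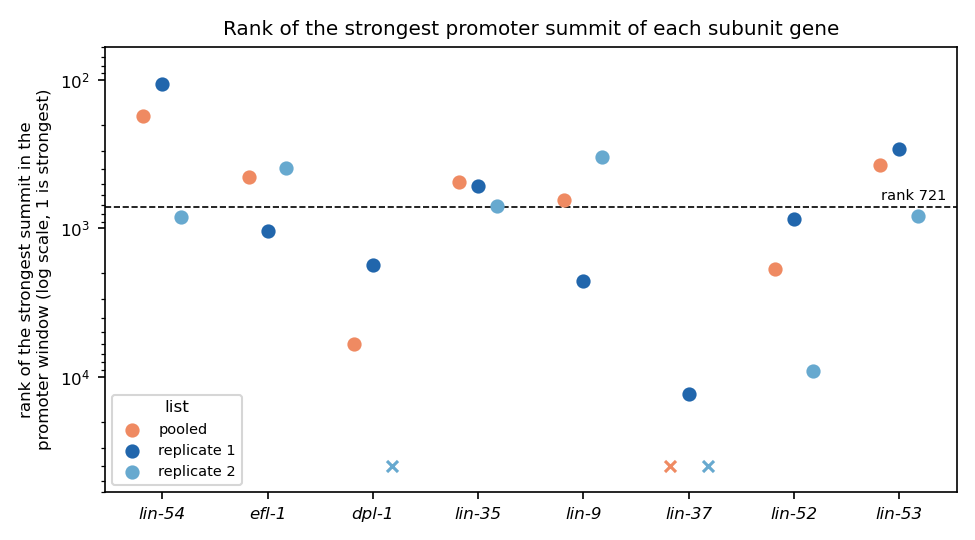
Rank of the strongest summit in the promoter window of each subunit gene (log scale, stronger is higher) in the pooled list and in each replicate's list, with crosses where a list had no summit there and a dashed line at rank 721. All 3 points lie on the strong side of the line for lin-35 only, and all points of dpl-1, lin-37 and lin-52 lie on the weak side.

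The replicates ranked most of the bound subunit genes differently. Taking only the 721 strongest peaks of replicate 1, lin-54, lin-35 and lin-53 had a summit in the promoter window, 3 of 8 against 2.5% of all genes. Taking those of replicate 2, efl-1, lin-35 and lin-9 had one, 3 of 8 against 2.33%. The same genes were found over the longer stretch from 2 kb upstream to the 3′ end, against 3.99% of all genes in replicate 1 and 3.8% in replicate 2. The peak of 1 of the 5 bound genes, lin-35, was among the 721 strongest of both replicates, while 54.7% of all nuclear thresholded peaks were. The larger rank was 7.88 times the smaller at lin-54, 6.84 times at lin-9, 2.83 times at lin-53, 2.65 times at efl-1 and 1.36 times at lin-35, and the median over all nuclear thresholded peaks was 2.15 (upper quartile 3.79). With 2 libraries, a difference in rank cannot be set against a spread within a group.

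**Figure D3:**
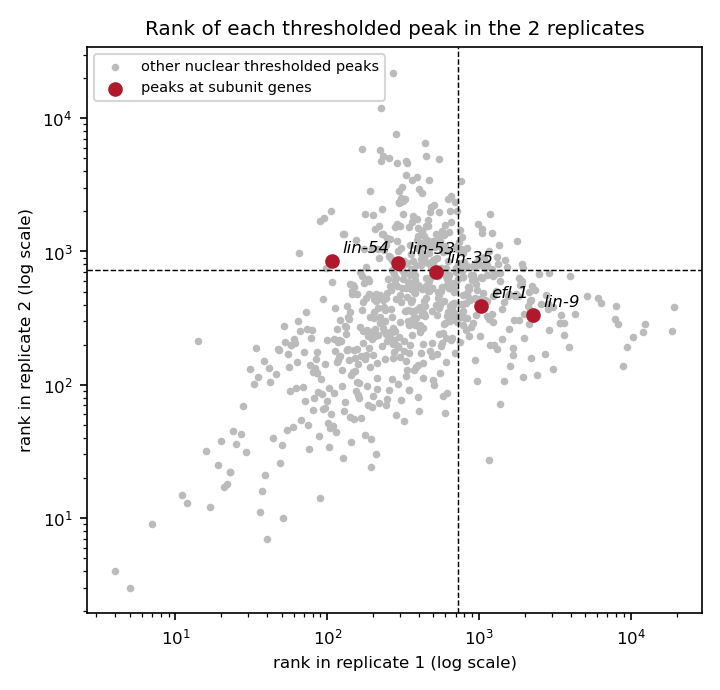
Rank of each of the 698 nuclear thresholded peaks in replicate 1 and in replicate 2 (log scales), with the peaks of the 5 bound subunit genes in red and dashed lines at rank 721. lin-35 falls inside both lines, lin-54 and lin-53 outside the line of replicate 2, and efl-1 and lin-9 outside that of replicate 1.

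Replicate summits were paired by lying at the same pooled peak, which bounds the distance between them. Some replicate summits were paired with several pooled peaks, so values over all thresholded peaks count them again. The summits of replicates 1 and 2 lay 3 bp apart at efl-1, 9 bp at lin-54, 44 bp at lin-53, 50 bp at lin-9 and 53 bp at lin-35. The median distance over all nuclear thresholded peaks was 37 bp, with quartiles of 14 and 69 bp. All 5 summits were upstream of the 5′ end, between 146 and 359 bp. Among all 529 genes with a thresholded summit in the promoter window, 86% had the strongest one upstream, the median was 252 bp upstream with quartiles of 105 and 450 bp, and 35.3% fell in the range of the 5 subunit genes. The 5 summits thus fell between the quartiles of all bound genes. The same window, 1000 bp upstream to 200 bp downstream, selected both sets, so an upstream position was favoured in advance for both.

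**Figure D4:**
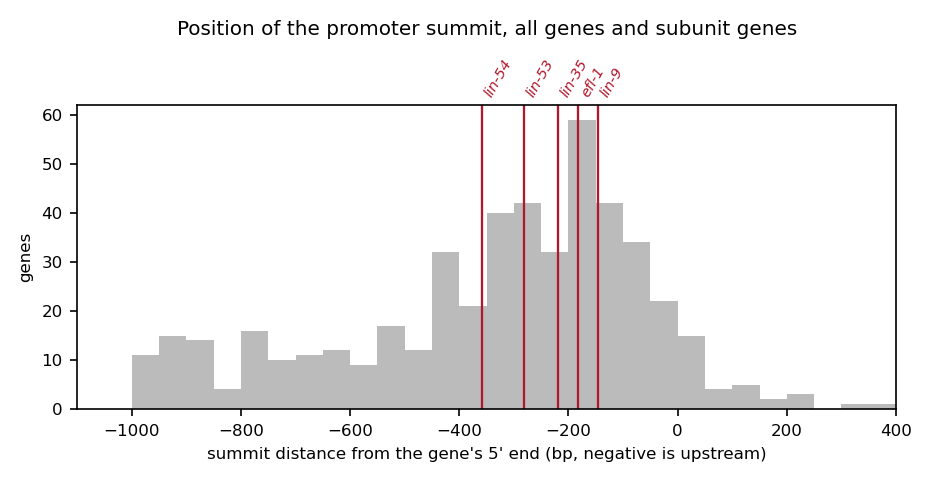
Number of genes by distance in bp from the gene's 5′ end to its strongest thresholded promoter summit, in bins of 50 bp, with the 5 bound subunit genes as red lines. The red lines lie between 146 and 359 bp upstream, within the bulk of the 529 genes, and 43 genes fall outside the axis, since windows were drawn at every transcript of a gene.

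The 5 bound genes were those whose upstream neighbour points away from them, a grouping that was made after the values were seen. All 5 had a divergent protein-coding neighbour upstream, with 392 bp between the genes at lin-54, 417 bp at lin-35, 466 bp at lin-53, 1138 bp at efl-1 and 1483 bp at lin-9. lin-37 and lin-52 followed a gene on the same strand at 60 and 126 bp, and the 5′ end of dpl-1 lay inside another gene. Over the whole genome 4.14% of the 8421 genes with a divergent upstream neighbour had a thresholded promoter summit, 1.37% of the 10156 with a neighbour on the same strand, and 2.95% of the 1391 whose 5′ end another gene covered. Thus arrangement and binding went together among the subunit genes in the same direction as among all genes, and their parts cannot be told apart in 8 genes.

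**Figure D5:**
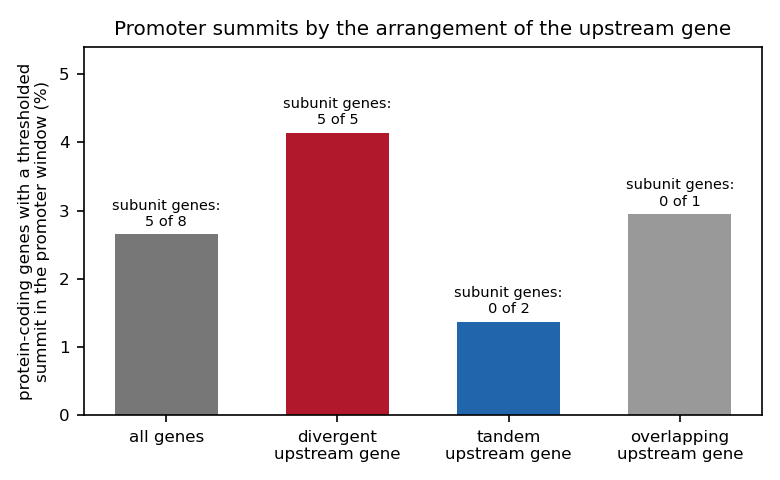
Percentage of protein-coding genes with a thresholded summit in the promoter window, over all genes and by what lies upstream of the 5′ end, with the count of subunit genes above each bar. The bar for divergent neighbours, 4.14%, is the highest and holds all 5 bound subunit genes.

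A summit between divergent genes belongs to either neighbour as far as position tells. Of the 5 peaks, those of lin-54, efl-1, lin-35 and lin-53 lay in the promoter window of 2 genes, and 34% of the 391 nuclear thresholded summits in promoter windows did so. With each summit given only to the nearest 5′ end, efl-1 and lin-9 remained, 2 of 8 against 1.92% of all genes. No annotated non-coding RNA gene lay within 1000 bp of any of the 5 summits. The nearest were ZK637.19 at 1174 bp from that of lin-9 and the snoRNA gene JC8.15 at 1608 bp from that of lin-54. None of the 32-bp words in the 5 peaks occurred elsewhere in the nuclear genome. The G+C content within 50 bp of the summit was 57.4% at lin-9, 52.5% at efl-1, 44.6% at lin-53, 42.6% at lin-54 and 35.6% at lin-35, and the median over all nuclear thresholded peaks was 51.5% (quartiles 45.5% and 54.5%). The summits of lin-35, lin-54 and lin-53 were thus below the lower quartile.

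Genes linked to DREAM that encode no subunit of it were looked at as a list of 31, not all of which act with it. These were other synMuv genes, further E2F genes, G1 cell cycle regulators and ztf-11. Of these, 4 had a thresholded summit in the promoter window (12.9%, against 2.65% of all genes). They were 2 of 13 class B genes, 1 of 4 class C genes, 1 of 9 E2F and cell cycle genes, and 0 of 4 class A genes, and ztf-11 itself had none. epc-1, a homologue of Enhancer of Polycomb in a histone acetyltransferase complex, had the strongest of these summits (signal 64.3, rank 182, 253 bp upstream), which it shares with Y111B2A.12. cki-1, which encodes a Cdk inhibitor that holds cells in G1, had a pair of summits (signals 51.3 and 34.9, ranks 297 and 671). mep-1, which encodes a zinc finger partner of the Mi-2 remodeller LET-418, had a signal of 41.2 (rank 473, 176 bp upstream). lin-61, which encodes an MBT repeat protein, had a signal of 38.2 (rank 548, 509 bp upstream). It shares the peak with the spindle checkpoint gene bub-1, which was the nearer gene at 150 bp. Among the 721 strongest peaks of each replicate alone, epc-1 and cki-1 had a promoter summit in both, mep-1 in replicate 1 only and lin-61 in replicate 2 only.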

How the data were processed

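ChIP-seq of eGFP-tagged ZTF-11 was measured in 2 libraries of 1 group, grouped by their labels. Peak lists were called per replicate and on both replicates together, each with a control, and the pooled peaks were then thresholded for reproducibility (irreproducible discovery rate), per the deposited listing of files. Which aligner and which peak caller were used, and at what cutoff, is not stated in any source used here. The deposited signal of each peak is the authors' value relative to the control, on a scale that is not stated, and depends on their caller and control. The deposited −log10 q-value of each peak is named so after the file format. Without reads or depth there are no counting intervals.

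All 721 thresholded peaks are identical to the 721 strongest of the pooled list. Lists on the ce11 build were used with WBcel235, the same sequence, and Ensembl release 115. The ce10 lists and the control library were not analysed here. Mitochondrial peaks (23 thresholded) kept their ranks and entered no gene count. Ranks are by signal within a list. Summits were assigned with Python 3.11.15 and pandas 2.3.3. The upstream neighbour is the closest protein-coding gene. Motifs were matched on both strands, and AAGTT is contained in AAAGTT. The assignment, neighbour and motif steps were tested on simulated data.

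The 8 genes, the list of 31 genes and the motifs were chosen with earlier results of these data known. Named genes are the 8, the genes that share their peaks or lie beside them, and bound genes of the list; others are named in the closing observations. Alternatives were narrower and wider windows, overlap in place of the summit, a stricter and a relaxed list, each replicate alone, the nearest 5′ end only and, added after seeing the data, RefSeq 5′ ends. No test was run.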

Additional observations from a re-analysis of the deposited data

How the results depend on the processing

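The count of 5 subunit genes with a thresholded promoter summit was also 5 with windows of 500 bp upstream to 100 bp downstream and 2000 bp upstream to 500 bp downstream, with overlap of the peak in place of its summit, and with RefSeq 5′ ends, an alternative chosen after seeing the data. It was 7 with every pooled summit (22.4% of all genes) and 2 with the nearest 5′ end only (1.92%). It was 1 (lin-54) with signals at or above the median of 45.8, which lin-53 narrowly missed at 45.6. It was 3 (range 3 to 3) without replicate 1 (2.33% of all genes) or without replicate 2 (2.5%). Over the stretch from 2 kb upstream to the 3′ end it was 1 at or above the median signal and 8 with every pooled summit (41% of all genes). There it was 3 to 3 without either replicate (3.8% of all genes without replicate 1, 3.99% without replicate 2). For the other alternatives the share of all genes is not given here. The count of 2 genes nearest to a summit was the same with genes of every class. The 4 bound genes of the list of 31 became 2 at or above the median signal, 3 and 5 with the narrower and wider windows, and 5 to 5 without either replicate, where mep-1 was lost without replicate 1 and lin-61 without replicate 2 while other genes of the list came in. In the list of 1 replicate at a time, 5 of 10 summit positions moved by more than 1 SD of that gene's positions in replicates 1 and 2, and all 10 signals moved, being on another scale. That SD comes from 2 positions and is smallest where the replicates lay closest, so the count does not measure how stable the positions are. In replicate 2 a shift of 4 bp at efl-1 counted as moved, and one of 15 bp at lin-53 did not. Fewer peaks enter the stricter list and more the pooled one; the cause of the other changes was not tested. Depth is unknown, and only 2 libraries were analysed.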

Other observations

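In the pooled list 17 of the list of 31 genes had a promoter summit, against 22.4% of all genes. Several had one just below the thresholded list, whose last rank is 721. The share of all genes in that range of ranks is not given here. These were the SUMO-conjugating enzyme gene ubc-9 (signal 33.7, rank 731), cdk-4, which encodes a G1 cyclin-dependent kinase (33.4, rank 750), and the class B synMuv genes lin-15B (32.4, rank 812), lin-36 (31.2, rank 875) and lin-13 (31.1, rank 878). They were picked out after their values were seen. Taking the 721 strongest peaks of replicate 1 alone, lin-15B and ubc-9 had a promoter summit, and taking those of replicate 2 alone, lin-13 and cdk-4 had one. In each case 5 of the 31 genes had one, against 2.5% of all genes in replicate 1 and 2.33% in replicate 2.

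GCGCTCCAC lay within 50 bp of the summit in 10 nuclear thresholded peaks, of which 3 were those of lin-54, efl-1 and lin-9. Of the other 7, 1 was in no promoter window (signal 49.7, rank 315, on chromosome III, 3456255 to 3456610). The rest were at Y39B6A.43 (rank 235), at F08G12.3 and snrp-40.1 (rank 356), at F33H2.3 (rank 389), at F36A2.9 and the ribosomal protein gene rps-15 (rank 434), at dnj-12 and mtx-1 (rank 485) and at gpap-1 and scpr-1 (rank 606). No factor is assigned to this word here, and no test was made of it.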
